A study of Mus musculus with 9 samples.

Results

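The expression of 10 genes of natural killer (NK) cells and cytotoxic lymphocytes was examined in dendritic cells (DCs) of healthy and leukemic mouse spleen. The genes were the granule genes Gzma, Gzmb, Prf1 and Nkg7, the receptor genes Klrd1, Klrk1, Klrb1c and Ncr1, and the transcription factor genes Eomes and Tbx21. They were taken by gene name from the RNA-seq table and were 10 of its 54532 genes. All 10 passed the filter that left 12746 genes for testing. The question was whether both groups of DCs from leukemic mice had lost these genes.

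N-mDCs were mature conventional DCs (cDCs) of healthy mice that had received no treatment. T-DCs were CD11c+MHCII lo cells, and T-mDCs mature cDCs, both of mice with T cell acute lymphoblastic leukemia (T-ALL). Each group had 3 samples, all from spleen. The mice were young adult females of the wild-type strains C57BL/6J or C57B6.SJL. Leukemia came from GFP-marked cells carrying the intracellular domain of Notch1 by retrovirus, transplanted without irradiation of the host, whose own lymphocytes were thus not removed by it, and spleens were taken at the late stage. The sources used here do not say whether 1 mouse or a pool gave each sample, so p-values measure only the spread between these samples, which may be technical. The markers by which cells were kept out of the T-DC gate included GFP, CD3 and NK1.1. NK1.1 is the protein of Klrb1c, so the T-DC gate bore directly on cells carrying 1 of the 10 gene products. A like gate is not stated for N-mDCs and T-mDCs.

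NK cells and cytotoxic T cells kill by releasing granules: perforin opens the membrane of the target cell and granzymes enter through it and cleave proteins inside. Receptors of the killer cell lectin-like family and the natural cytotoxicity receptor Ncr1 set whether an NK cell fires, and the T-box factors Eomes and T-bet (Tbx21) guide the formation of NK cells and the expression of their effector genes. Several of these genes are not limited to NK cells, since activated T cells make granzymes, and T-bet and some lectin-like receptors are also made by subsets of DCs. In RNA from a sorted population, fewer cells of a type and less RNA per cell cannot be told apart.

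Reads on genes ranged from 15360815 to 18440913 per sample. Markers shared by DCs (6 genes, summed) lay between 13073 and 19533 FPKM in N-mDCs and between 8742 and 12271 FPKM in T-mDCs. In T-DCs they lay between 499.8 and 1832 FPKM. Most of these sums came from the MHCII-related genes Cd74 and H2-Ab1, with N-mDC means of 11083 and 5214 FPKM. T-DCs were sorted as MHCII lo, so their low sums are partly set by the gate. Of the 6 genes, 5 fell in T-DCs against N-mDCs, beside 10.3% of all tested genes. The exception was Itgax, which encodes CD11c (limma, adjusted p = 0.0926). T-mDC samples 2 and 3 resembled each other more closely than any other pair within a group, with a chi-square of 1.85 per gene against 8.11 or more. Hemoglobin transcripts took 3.82% and 3.0% of the reads of T-DC samples 2 and 3, and 0.0422% of those of T-DC sample 1. Members' differences with and without these samples are given after the single genes.

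The stretch before the start of a gene shows which letters its known regulators could read, and these stretches are shown because most of the 10 genes moved together. An entry of RefSeq was matched to 9 of them, all but Klrd1. Each sequence is the 250 bases before the RefSeq start on the gene's own strand, in GRCm38.p6, the patch release of the assembly also called mm10. The windows were chr13:113100982-113101231 for Gzma (minus strand), chr14:56262335-56262584 for Gzmb (minus), chr10:61297586-61297835 for Prf1 (plus), chr7:43436888-43437137 for Nkg7 (plus), chr6:129623865-129624114 for Klrk1 (minus), chr7:4337465-4337714 for Ncr1 (plus) and chr11:97115332-97115581 for Tbx21 (minus). Capitals mark the Runx core TGTGGT, the T-box site TCACACCT and the AP-1 site TGAGTCA, on either strand.
Gzma: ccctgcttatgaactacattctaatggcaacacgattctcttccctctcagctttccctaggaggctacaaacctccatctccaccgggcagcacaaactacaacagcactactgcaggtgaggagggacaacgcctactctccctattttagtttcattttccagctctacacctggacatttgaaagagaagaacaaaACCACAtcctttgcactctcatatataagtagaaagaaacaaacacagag
Gzmb: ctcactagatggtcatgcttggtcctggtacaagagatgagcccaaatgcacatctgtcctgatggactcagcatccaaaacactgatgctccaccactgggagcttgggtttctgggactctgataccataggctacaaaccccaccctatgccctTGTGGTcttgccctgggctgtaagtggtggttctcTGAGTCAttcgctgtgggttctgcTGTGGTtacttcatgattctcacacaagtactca
Prf1: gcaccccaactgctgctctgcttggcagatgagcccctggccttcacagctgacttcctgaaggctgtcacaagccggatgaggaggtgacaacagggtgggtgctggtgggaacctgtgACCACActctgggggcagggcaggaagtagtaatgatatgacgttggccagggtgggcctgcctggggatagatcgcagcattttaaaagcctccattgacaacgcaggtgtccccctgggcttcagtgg
Nkg7: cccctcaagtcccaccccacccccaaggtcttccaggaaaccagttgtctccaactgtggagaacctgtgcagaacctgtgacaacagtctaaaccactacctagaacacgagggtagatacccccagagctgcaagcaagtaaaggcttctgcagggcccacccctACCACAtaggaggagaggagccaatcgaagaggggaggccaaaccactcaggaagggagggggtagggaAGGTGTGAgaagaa
Klrk1: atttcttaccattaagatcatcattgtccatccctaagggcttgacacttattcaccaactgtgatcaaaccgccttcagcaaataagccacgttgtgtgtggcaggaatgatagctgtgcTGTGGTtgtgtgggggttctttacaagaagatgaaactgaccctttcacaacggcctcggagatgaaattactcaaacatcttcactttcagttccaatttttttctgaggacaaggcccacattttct
Ncr1: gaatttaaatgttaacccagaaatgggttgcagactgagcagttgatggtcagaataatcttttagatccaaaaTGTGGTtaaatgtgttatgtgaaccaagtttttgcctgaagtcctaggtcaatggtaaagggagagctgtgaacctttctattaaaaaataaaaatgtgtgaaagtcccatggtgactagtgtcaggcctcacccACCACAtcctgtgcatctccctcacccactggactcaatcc
Tbx21: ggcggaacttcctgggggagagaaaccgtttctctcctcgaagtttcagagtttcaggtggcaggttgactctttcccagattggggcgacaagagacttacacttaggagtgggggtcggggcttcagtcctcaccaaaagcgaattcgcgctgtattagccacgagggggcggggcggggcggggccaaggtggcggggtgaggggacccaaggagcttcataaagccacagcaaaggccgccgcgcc

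The Runx core was present in 7 of the 9 windows (Gzma, Gzmb, Prf1, Nkg7, Klrk1, Klrb1c and Ncr1) and in 14% of 32851 mouse promoter windows of this length. Gzmb and Ncr1 each held 2 copies, which began 93 and 34 bases before the start in Gzmb and 176 and 41 bases before it in Ncr1. The windows of the transcription factor genes Eomes and Tbx21 held none of the 3 motifs, and that of Tbx21 is shown for this contrast. The T-box site occurred once, in Nkg7, beginning 14 bases before the RefSeq start, against 1.12% of all windows. The Nkg7 window ends at base 43437137, past the start of the gene as counted (43437073), so this site lies inside the counted gene. RefSeq starts also differed from those of the counted genes for Gzmb, Prf1, Klrb1c, Ncr1 and Eomes. The Klrb1c window (chr6:128788642-128788891, minus strand) lies wholly inside the counted gene, which ends at base 128789215. Its Runx core is therefore not before the counted start. The AP-1 site occurred once, in Gzmb, between its 2 Runx cores, against 4.46% of all windows. None of the matches overlapped another. The Runx and AP-1 motifs were chosen after these sequences had been read, so their counts are a description. A match describes the letters and does not show binding.

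All 10 genes were lower on average in both leukemic groups than in N-mDCs, but not alike. Klrk1 and Tbx21 were low in T-DCs with high values in T-mDCs. Klrd1 was low in T-DCs and intermediate in T-mDCs, and the other members were low in both. In T-DCs, 9 of the 10 fell against N-mDCs, with Nkg7 as the exception, where 10.3% of all tested genes fell. In T-mDCs, 6 of the 10 fell (Gzma, Prf1, Nkg7, Klrb1c, Ncr1 and Eomes), where 1.52% of all tested genes fell. Gzma, Prf1, Klrb1c, Ncr1 and Eomes fell in both leukemic groups, 5 of the 10 members, against 1.29% of all tested genes. No member rose in either comparison by limma (0 at an unadjusted p under 0.05, 0 with voom), where 6.10% of all tested genes rose in T-DCs and 0.690% in T-mDCs. Both comparisons use the same 3 N-mDC samples and are therefore not independent. The test was limma on log2(FPKM + 1) with Benjamini-Hochberg adjustment over all 12746 genes and a threshold of 0.05, and differences below are on that scale, which understates the change of low genes.

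The samples of T-DCs and N-mDCs did not overlap for 9 members, all lower in T-DCs, where this held for 16.4% of all tested genes. Those of T-mDCs and N-mDCs did not overlap for 8 members, against 15.7%. The median difference of the 10 members was -2.29 in T-DCs and -2.23 in T-mDCs, while that of all tested genes was 0.05 and 0.03. Klrb1c, Ncr1 and Eomes reached 1 FPKM in no leukemic sample, so they passed the filter through N-mDCs alone. Their N-mDC values thus had to lie above all leukemic values. The counts and medians of the members are therefore a description.

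**Figure D1:**
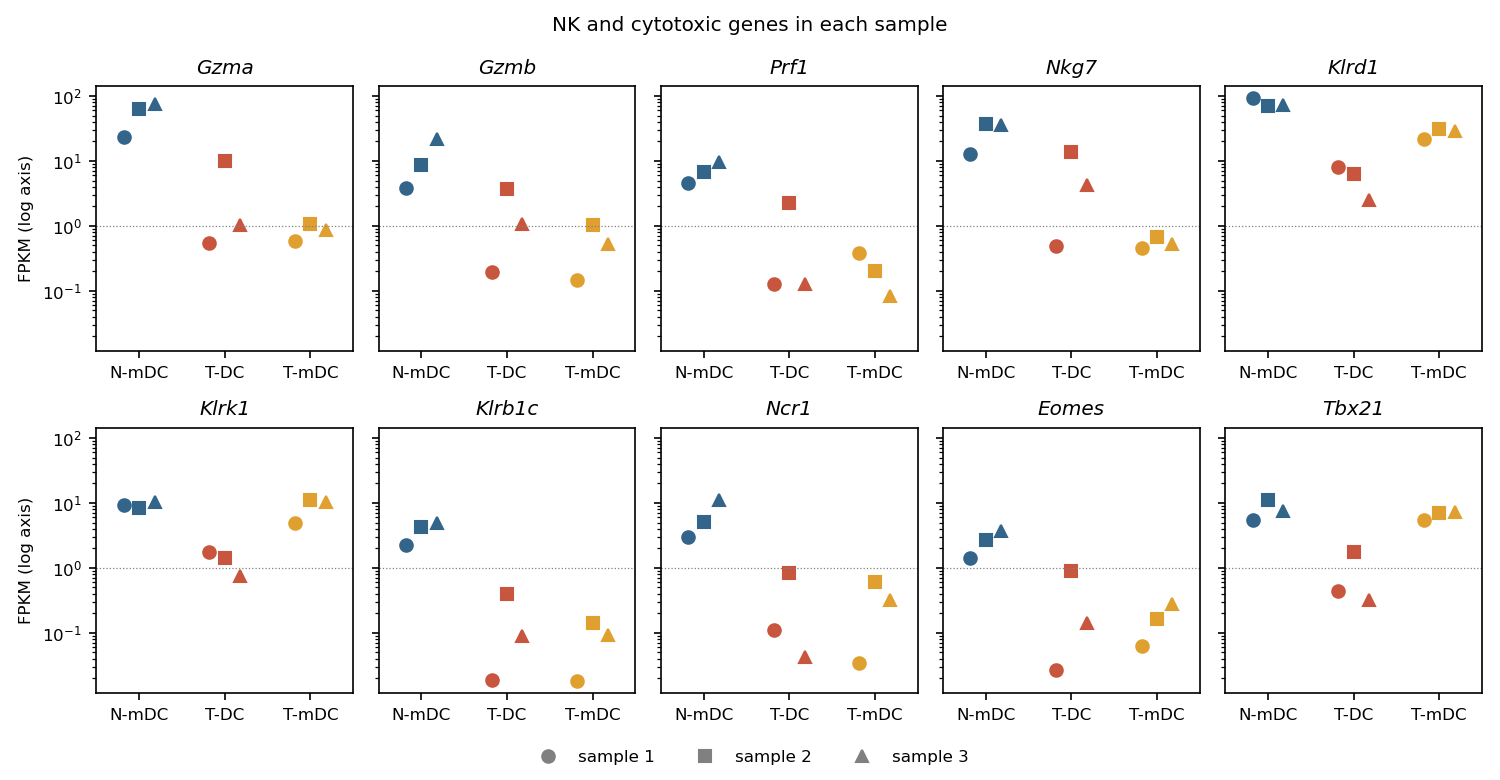
FPKM (log axis) of each of the 10 genes in the 3 N-mDC, 3 T-DC and 3 T-mDC samples. Each symbol is 1 sample and its shape gives the sample number, and the dotted line marks 1 FPKM. Gzma, Gzmb, Prf1, Nkg7, Klrb1c, Ncr1 and Eomes are low in both leukemic groups, with T-DC sample 2 the highest of the leukemic samples, whereas the Klrk1 and Tbx21 values of T-mDCs are close to the N-mDC values in samples 2 and 3 and lower in sample 1.

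Per length, Gzma and Nkg7 had the highest means of the members after Klrd1 in N-mDCs, and all 4 granule genes were at or under 1.08 FPKM in every T-mDC sample. Gzma (chr13:113093825-113100981, minus strand), which encodes granzyme A, a tryptase of cytotoxic granules, was at 23.7, 62.5 and 76.8 FPKM in N-mDC samples 1, 2 and 3, at 0.555, 9.94 and 1.05 FPKM in T-DCs, and at 0.579, 1.08 and 0.865 FPKM in T-mDCs. Every leukemic sample was below every N-mDC sample, and T-DC sample 2 stood far above the other T-DC and T-mDC samples. The mean of 54.3 ± 27.5 FPKM (SD, n = 3) in N-mDCs was 14.1-fold that of T-DCs and 64.6-fold that of T-mDCs, and without T-DC sample 2 it was 67.8-fold that of T-DCs. Gzma differed by -3.92 ± 0.71 (SE) in T-DCs (limma, adjusted p = 0.00878) and by -4.76 ± 0.71 in T-mDCs (limma, adjusted p = 0.0167).

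Prf1 (chr10:61297833-61304680, plus strand) encodes perforin, the pore former without which granzymes do not reach their targets. It was at 4.53, 6.78 and 9.59 FPKM in N-mDCs, at 0.130, 2.22 and 0.127 FPKM in T-DCs and at 0.389, 0.200 and 0.0842 FPKM in T-mDCs. T-DC sample 2 again held most of what was left in T-DCs, with 89 reads against 6 and 5 in the other T-DC samples. Prf1 differed by -2.26 ± 0.42 in T-DCs (limma, adjusted p = 0.00951) and by -2.66 ± 0.42 in T-mDCs (limma, adjusted p = 0.0194).

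Gzmb (chr14:56258838-56262260, minus strand) encodes granzyme B, which cleaves caspases and other targets after aspartate. Its values were 3.87, 8.65 and 21.9 FPKM across N-mDCs, 0.194, 3.73 and 1.05 FPKM across T-DCs and 0.148, 1.04 and 0.530 FPKM in T-mDCs. The spread among N-mDCs was wide, and N-mDC sample 1 came close to T-DC sample 2. Gzmb passed the threshold in T-DCs, at -2.18 ± 0.63 (limma, adjusted p = 0.0466), and held in 6 of 19 alternatives, among which the adjusted p ranged from 0.0329 to 0.132. When N-mDC samples 2 and 3, T-DC samples 1 and 3, and T-mDC samples 1, 2 and 3 were left out singly, the adjusted p in T-DCs was 0.0976, 0.132, 0.0606, 0.121, 0.0605, 0.0697 and 0.0751. In T-mDCs the difference was -2.74 ± 0.63 and did not pass (limma, adjusted p = 0.0683), although no T-mDC value reached those of N-mDCs. It passed when N-mDC sample 1 (adjusted p = 0.0470) or T-DC sample 1 (adjusted p = 0.0287) was left out. Without any other 1 sample it did not pass (limma, adjusted p from 0.06 to 0.222).

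Nkg7 (chr7:43437073-43438249, plus strand) encodes a granule membrane protein that takes part in the release of granule contents. It was at 12.9, 37.6 and 36.0 FPKM in N-mDCs, at 0.489, 13.8 and 4.32 FPKM in T-DCs and at 0.464, 0.679 and 0.535 FPKM in T-mDCs. T-DC sample 2 exceeded N-mDC sample 1, so these groups overlapped, whereas the T-mDC values were tightly placed far below. The difference in T-mDCs was -4.12 ± 0.74 (limma, adjusted p = 0.0302), and the mean of N-mDCs was 51.6-fold that of T-mDCs. In T-DCs the difference of -2.47 ± 0.74 missed the threshold (limma, adjusted p = 0.0537, interval -4.16 to -0.79). Without T-DC sample 2 it was -3.27 (adjusted p = 0.0191) and without T-DC sample 1 it was -1.61 (adjusted p = 0.0415).

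Of the receptors, Klrb1c and Ncr1 were low in both leukemic groups, Klrd1 was lowest in T-DCs and intermediate in T-mDCs, and Klrk1 was low in T-DCs alone. Klrb1c (chr6:128778485-128789215, minus strand) encodes NK1.1, the receptor by which NK cells of C57BL/6 mice are recognised. It was at 2.29, 4.22 and 4.98 FPKM in N-mDCs, at 0.0189, 0.392 and 0.0890 FPKM in T-DCs and at 0.0179, 0.140 and 0.0918 FPKM in T-mDCs. T-DC sample 1 and T-mDC sample 1 each held 1 read of Klrb1c, under the 3 reads that a count of 0 would allow, where N-mDC sample 1 held 106. Klrb1c differed by -2.02 ± 0.25 in T-DCs (limma, adjusted p = 0.00182) and by -2.11 ± 0.25 in T-mDCs (limma, adjusted p = 0.00834). The gene overlaps Gm44511 on the same strand, which was at 0 FPKM in all samples.

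Ncr1 (chr7:4337724-4345164, plus strand) encodes NKp46, an activating receptor of NK cells and some innate lymphoid cells that recognises viral and tumor ligands. It was at 2.99, 5.12 and 10.98 FPKM in N-mDCs, at 0.109, 0.838 and 0.0428 FPKM in T-DCs and at 0.0344, 0.605 and 0.318 FPKM in T-mDCs. The leukemic samples lay below all N-mDCs and held between 1 and 20 reads of the gene. Ncr1 differed by -2.37 ± 0.40 in T-DCs (limma, adjusted p = 0.00707) and by -2.35 ± 0.40 in T-mDCs (limma, adjusted p = 0.0262), so both leukemic groups were at 5.18% and 5.01% of the N-mDC mean.

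Klrd1 (chr6:129591782-129598775, plus strand) encodes CD94, which pairs with NKG2 proteins to form receptors for the nonclassical MHC molecule Qa-1. Per length it had the highest mean of the members in N-mDCs, although Gzma was above it in N-mDC sample 3. Its values were 93.2, 70.1 and 72.7 FPKM across N-mDCs, 7.98, 6.20 and 2.47 FPKM across T-DCs and 21.7, 31.6 and 29.2 FPKM in T-mDCs. The 3 groups did not overlap, with T-mDCs between the others, and T-DC sample 1 rather than sample 2 was the highest of the T-DCs. Klrd1 fell by 3.70 ± 0.34 in T-DCs (limma, adjusted p = 0.000696), and the mean of N-mDCs was 14.2-fold that of T-DCs. In T-mDCs the difference of -1.49 ± 0.34, a 2.86-fold difference of means, did not pass (limma, adjusted p = 0.0694), but passed when T-DC sample 1 (adjusted p = 0.0236) or T-DC sample 3 (adjusted p = 0.0187) was left out. Those fits kept the difference at -1.49 and changed only the estimate of the spread. Without any other 1 sample the difference did not pass (limma, adjusted p from 0.104 to 0.212).

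Klrk1 (chr6:129610323-129623864, minus strand) encodes NKG2D, an activating receptor for stress-induced ligands. Its values were 9.28, 8.23 and 10.5 FPKM across N-mDCs, 1.73, 1.41 and 0.743 FPKM across T-DCs and 5.0, 11.03 and 10.5 FPKM in T-mDCs. T-DCs were below every other sample, and T-mDC samples 2 and 3 were at or above the highest N-mDC value. Klrk1 fell by 2.19 ± 0.29 in T-DCs (limma, adjusted p = 0.00267). The difference in T-mDCs was -0.13 ± 0.29 (limma, adjusted p = 0.859), with an interval from -0.80 to 0.54, and without T-mDC sample 1 it was 0.19 (adjusted p = 0.742).

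The T-box factors parted in the same way, although they are close relatives. Eomes (chr9:118478212-118486132, plus strand), which is needed for the maturation of NK cells, was at 1.40, 2.69 and 3.75 FPKM in N-mDCs, at 0.0269, 0.885 and 0.143 FPKM in T-DCs and at 0.0637, 0.162 and 0.275 FPKM in T-mDCs. It was low in all N-mDCs and lower in all leukemic samples. Eomes differed by -1.42 ± 0.31 in T-DCs (limma, adjusted p = 0.0174) and by -1.58 ± 0.31 in T-mDCs (limma, adjusted p = 0.0404). In T-DCs the adjusted p was 0.0518 without N-mDC sample 2, 0.0608 without N-mDC sample 3 and 0.0612 without T-DC sample 3. The antisense gene Gm33460 overlaps Eomes and stayed at or under 0.241 FPKM, and whether the counting used strand is not given in the sources used here.

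Tbx21 (chr11:97098071-97115331, minus strand) encodes T-bet, which drives type 1 responses in lymphocytes and is also made by DCs. It was at 5.55, 11.01 and 7.42 FPKM in N-mDCs, at 0.449, 1.79 and 0.318 FPKM in T-DCs and at 5.41, 7.11 and 7.21 FPKM in T-mDCs. T-mDCs overlapped N-mDCs, and T-DCs were below both. Tbx21 fell by 2.32 ± 0.33 in T-DCs (limma, adjusted p = 0.00328). In T-mDCs it differed by -0.21 ± 0.33 (limma, adjusted p = 0.786), with an interval from -0.95 to 0.53, and without N-mDC sample 2 the difference was 0.02 (adjusted p = 0.991).

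**Figure D2:**
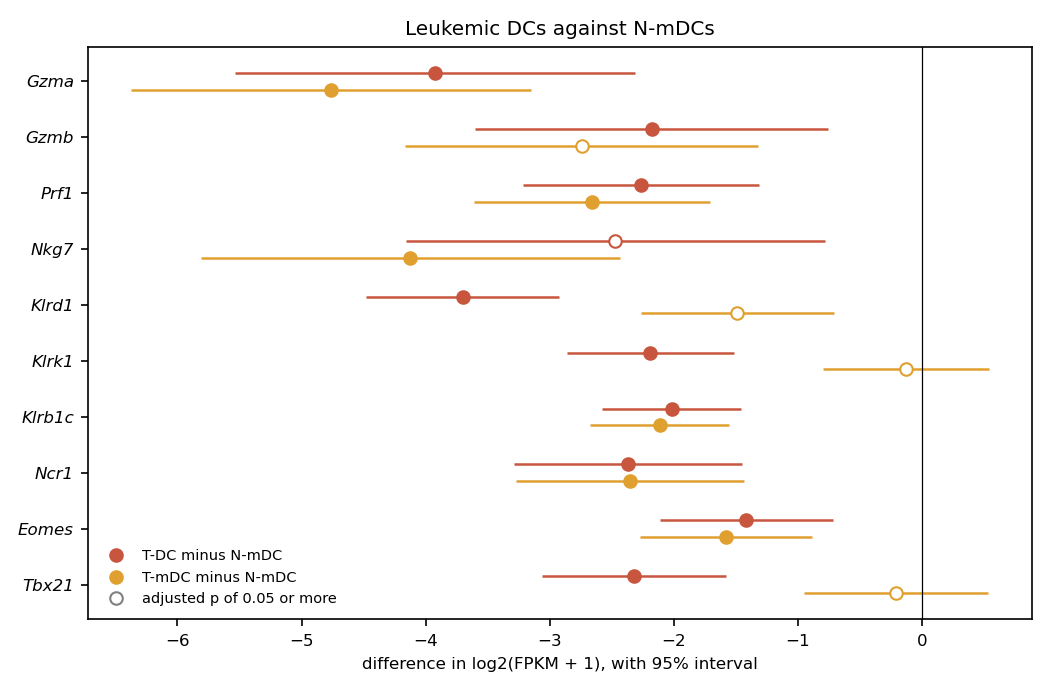
Difference of T-DCs (red) and T-mDCs (yellow) from N-mDCs in log2(FPKM + 1) for each gene, with the 95% interval of the limma fit as a line (3 samples per group). Open symbols mark an adjusted p of 0.05 or more. T-mDC symbols for Klrk1 and Tbx21 sit near 0, while the T-DC symbols lie between -1.42 and -3.92.

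How firmly the fall in both leukemic groups could be called differed between them. Of the 19 alternatives, median-of-ratios scaling gave every sample the same factor of 1.004 and so nearly repeated the main fit. Among the 19 alternatives, Gzma, Prf1, Klrd1, Klrk1, Klrb1c and Tbx21 passed in T-DCs in all 19, Ncr1 in 18 and Eomes in 15. In T-mDCs no gene passed in all: Klrb1c passed in 17, Gzma in 14, Prf1 in 12, Nkg7 in 10, Ncr1 in 9 and Eomes in 8. Klrb1c, Ncr1 and Eomes passed the filter through N-mDCs alone, and T-DCs were sorted without NK1.1, the protein of Klrb1c. The counts of Klrb1c, Ncr1 and Eomes are therefore a description. The 6 members called lower in T-mDCs became 1 without N-mDC sample 2, 1 without N-mDC sample 3, 3 without T-mDC sample 1, 1 without T-mDC sample 2 and 0 without T-mDC sample 3. The single gene was Klrb1c in each case, and its adjusted p without T-mDC sample 3 was 0.0540. With the closely matching T-mDC samples 2 and 3 averaged into 1 sample, 0 members were called in T-mDCs by limma. At an unadjusted p under 0.05, 8 members were lower in T-mDCs in that fit, and 8 also in each of the leave-out fits named, while voom on recovered reads called 3.

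T-DC sample 2 held much of what was left of several members in T-DCs. Without it, the N-mDC mean was 54.2-fold that of T-DCs for Prf1 and 30.8-fold for Eomes. In T-DC samples 1 and 3 these rest on 6 and 5 reads of Prf1 and 2 and 9 reads of Eomes, so both folds are rough. Klrb1c and Ncr1 were left with too few reads for a fold. The differences in T-DCs were then -4.80 (Gzma), -2.77 (Prf1), -2.71 (Gzmb), -2.15 (Klrb1c), -2.63 (Ncr1) and -1.68 (Eomes), and all 10 members were called. With T-DC samples 2 and 3 both left out, they were -4.99 (Gzma), -2.77 (Prf1), -3.10 (Gzmb), -4.19 (Nkg7), -2.20 (Klrb1c), -2.58 (Ncr1), -1.76 (Eomes), -3.14 (Klrd1), -1.91 (Klrk1) and -2.59 (Tbx21). In that fit Gzmb (adjusted p = 0.0682) and Ncr1 (adjusted p = 0.0527) did not pass and Nkg7 did (adjusted p = 0.0199).

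The changes of call in T-mDCs arose with little change in the differences themselves. When sample 2 or 3 of the N-mDCs or of the T-mDCs was left out, the difference of Gzma lay between -4.85 and -4.43, with adjusted p from 0.0785 to 0.0891. That of Prf1 lay between -2.65 and -2.43, with adjusted p from 0.0901 to 0.101. For Nkg7, Ncr1 and Eomes the call was lost without any 1 of these samples or T-mDC sample 1, with adjusted p from 0.0546 to 0.158, and for Eomes also without T-DC sample 3 (adjusted p = 0.0544). In T-DCs the count of members called lower lay between 7 and 10 when any 1 sample was left out.

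T-DCs and T-mDCs came from the same kind of leukemic spleen, and their direct comparison was used to ask which members separated them. Klrd1, Klrk1 and Tbx21 were lower in T-DCs, 3 of the 10 members, where 8.79% of all tested genes were lower. Klrd1 differed by -2.21 ± 0.34 (limma, adjusted p = 0.00498), Klrk1 by -2.06 ± 0.29 (limma, adjusted p = 0.00386) and Tbx21 by -2.11 ± 0.33 (limma, adjusted p = 0.00500). The T-mDC mean was 4.96-fold that of T-DCs for Klrd1, 6.83-fold for Klrk1 and 7.72-fold for Tbx21. These same 3 members were the ones whose samples did not overlap, against 18.1% of all tested genes in that direction. Klrk1 had an adjusted p of 0.0528 with T-DC samples 2 and 3 both left out, and the other calls held in all alternatives.

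The other 7 members did not pass between T-DCs and T-mDCs, and none was higher in T-DCs by limma (0 at an unadjusted p under 0.05, 0 with voom), where 5.44% of all tested genes were higher. Nkg7 was the furthest apart, at 1.65 ± 0.74 higher in T-DCs (limma, adjusted p = 0.175, interval -0.03 to 3.34). Without T-DC sample 1 the difference was 2.51 and passed (adjusted p = 0.00806). Gzma differed by 0.84, with an interval from -0.78 to 2.45, and without T-DC sample 2 by -0.04. Ncr1 differed by -0.01, with an interval from -0.93 to 0.91. The intervals of the granule genes are wide, so these data do not show that the leukemic groups were alike in them.

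Scaling moved the counts over all genes in this last comparison. Over all tested genes 1120 were lower and 693 higher in T-DCs than in T-mDCs, and 1458 and 516 when values were scaled to the reads on genes, which moved the median difference from 0.07 to -0.06. The same 3 member calls were made under both scalings. Against N-mDCs, scaling to the reads on genes added the call of Nkg7 in T-DCs (limma, adjusted p = 0.0475), which made 10 members lower there and 6 lower in both leukemic groups.

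The order of the levels also differed between genes. Klrb1c, Ncr1 and Eomes had means of 0.167, 0.330 and 0.352 FPKM in T-DCs and 0.0832, 0.319 and 0.167 FPKM in T-mDCs, neighbours that did not differ beyond their spread. For Klrk1 and Tbx21 the neighbours that did not differ beyond their spread were T-mDCs, with means of 8.85 ± 3.34 and 6.58 ± 1.01 FPKM, and N-mDCs, with means of 9.34 ± 1.13 and 7.99 ± 2.77 FPKM (SD, n = 3 each).

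Across the 9 samples the members formed 2 sets, chosen here after their values were seen. Gzma, Gzmb, Prf1, Nkg7, Klrb1c, Ncr1 and Eomes gave 21 pairs with Pearson's r from 0.86 to 0.99 on log2(FPKM + 1). Klrd1, Klrk1 and Tbx21 gave 3 pairs with r from 0.89 to 0.93. The 21 pairs between the sets had r from 0.13 to 0.73. The points are 9 samples in 3 groups, so these values describe the group pattern as much as any link between genes.

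**Figure D3:**
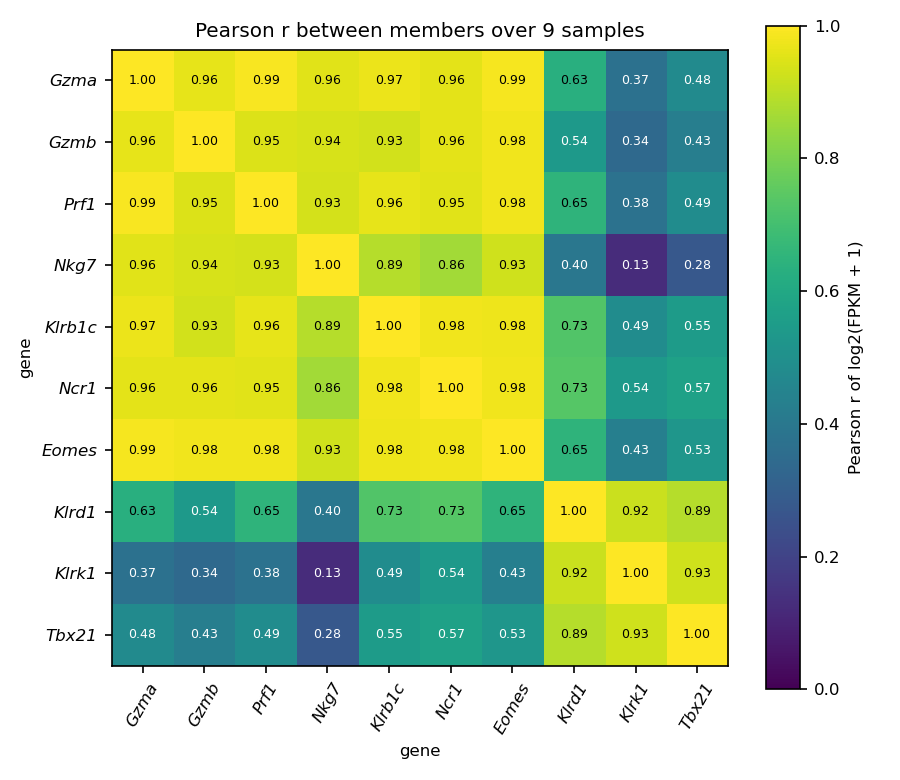
Pearson's r of log2(FPKM + 1) between each pair of the 10 genes over the 9 samples, as colors and numbers, with genes in the order of the sets described in the text. The 7 genes at the top left have r of 0.86 or more with each other, and their r with Klrd1, Klrk1 and Tbx21 is 0.73 or less.

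Some ratios between members within a sample show the same split without reference to library scaling. Tbx21 was 1.98 to 4.09 times Eomes per length in N-mDCs, 2.02 to 16.7 times in T-DCs and 26.2 to 84.8 times in T-mDCs. The T-mDC ratios lay above all others, although they rest on 5 to 21 reads of Eomes. Klrk1 was 0.956 to 3.10 times Ncr1 in N-mDCs and 18.2 to 145 times Ncr1 in T-mDCs. In T-DC samples 1 and 3 it was 15.9 and 17.4 times Ncr1, above N-mDCs and next to the T-mDC range, on 3 reads and 1 read of Ncr1. In T-DC sample 2, the Tbx21 to Eomes ratio of 2.02 and the Klrk1 to Ncr1 ratio of 1.68 were in the range of N-mDCs. Klrd1 was 6.62 to 31.2 times Ncr1 in N-mDCs, 7.39 to 73.3 times in T-DCs and 52.3 to 630 times in T-mDCs, so T-DCs overlapped both. Nkg7 and Gzma did not keep step: Nkg7 was 0.469 to 0.602 times Gzma in N-mDCs. It was 0.881, 1.38 and 4.13 times Gzma in T-DCs and 0.619 to 0.800 times in T-mDCs.

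Some markers of other cells moved along with these genes, and others did not. Of 14 further NK markers, 12 of which also stand in the receptor, granule, cytokine and adaptor lists below, the summed level ranged from 64.1 to 117 FPKM across N-mDCs, from 2.35 to 17.5 FPKM across T-DCs and from 8.24 to 15.8 FPKM across T-mDCs. Of the 15 genes of that list, 11 were tested, and 8 fell in T-DCs and 5 in T-mDCs, beside 10.3% and 1.52% of all tested genes. Among those called in both, Klra7 and Klre1 reached 1 FPKM in no leukemic sample and passed the filter through N-mDCs alone. These counts are therefore a description. None of the 14 reached 1 FPKM in T-DC sample 1, where Klra7 and Klrc1 were at 0. The NK list as first written also held S1pr5, which ran the other way, is given below and was left out of these sums after its values were seen. With it, the sums ranged from 67.6 to 123 FPKM across N-mDCs, from 50.9 to 138 FPKM across T-DCs and from 16.1 to 35.3 FPKM across T-mDCs, so that T-DCs overlapped N-mDCs and T-DC sample 1 was the highest.

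T-lineage markers (15 genes) summed to values from 149 to 195 FPKM across N-mDCs, from 27.8 to 97.8 FPKM across T-DCs and from 66.4 to 127 FPKM across T-mDCs, with Cd4 and Cd8a, which DC subsets also make, among them. Of the 15, 13 were tested, and 4 fell in T-DCs (Cd4, Cd8a, Cd8b1 and Cd5) and 2 in T-mDCs (Cd8b1 and Cd5), beside 10.3% and 1.52% of all tested genes. None of the 6 tested genes of the T cell receptor and CD3 was called by limma, with adjusted p from 0.156 to 0.667 in T-DCs and from 0.258 to 0.465 in T-mDCs. No T-lineage marker was at 0 in any sample. The defining marker Cd3d was at 0.705, 4.38 and 2.91 FPKM in N-mDCs, at 0.215, 5.94 and 0.762 FPKM in T-DCs and at 0.525, 0.798 and 0.629 FPKM in T-mDCs. Trbc1, a constant region of the T cell receptor, was at 7.69, 29.6 and 27.6 FPKM across N-mDCs and at 1.19, 28.1 and 4.75 FPKM in T-DCs. Thus N-mDC samples 2 and 3 and T-DC sample 2, the samples highest in Gzma and Nkg7 within their groups, were also the highest in these T cell genes. Neutrophil markers (7 genes) summed to 4322 FPKM in T-DC sample 2 and 1513 FPKM in T-DC sample 3, against 8.59 FPKM in T-DC sample 1. The part of NK, T or other cells in the members' values was not tested.

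Markers of cDC1, the DC subset that cross-presents antigen, were lower in T-DCs than in T-mDCs, as were Klrd1, Klrk1 and Tbx21. The 8 cDC1 markers summed to values from 315 to 406 FPKM across N-mDCs, from 48.6 to 196 FPKM across T-DCs and from 420 to 627 FPKM across T-mDCs. In T-mDCs these sums lay above those of all N-mDCs, whereas Klrd1 lay below all N-mDCs and Klrk1 and Tbx21 overlapped them. T-DC sample 1 was the highest T-DC sample for cDC1 markers, for Klrd1 and Klrk1, and also for the summed pan-DC, cDC2 and macrophage markers, while Tbx21 was highest in T-DC sample 2. Of the 8 cDC1 markers 5 fell in T-DCs against N-mDCs, beside 10.3% of all tested genes. All 8 were lower in T-DCs than in T-mDCs, beside 8.79%. Their part in the values of Klrd1, Klrk1 and Tbx21 was not tested.

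**Figure D4:**
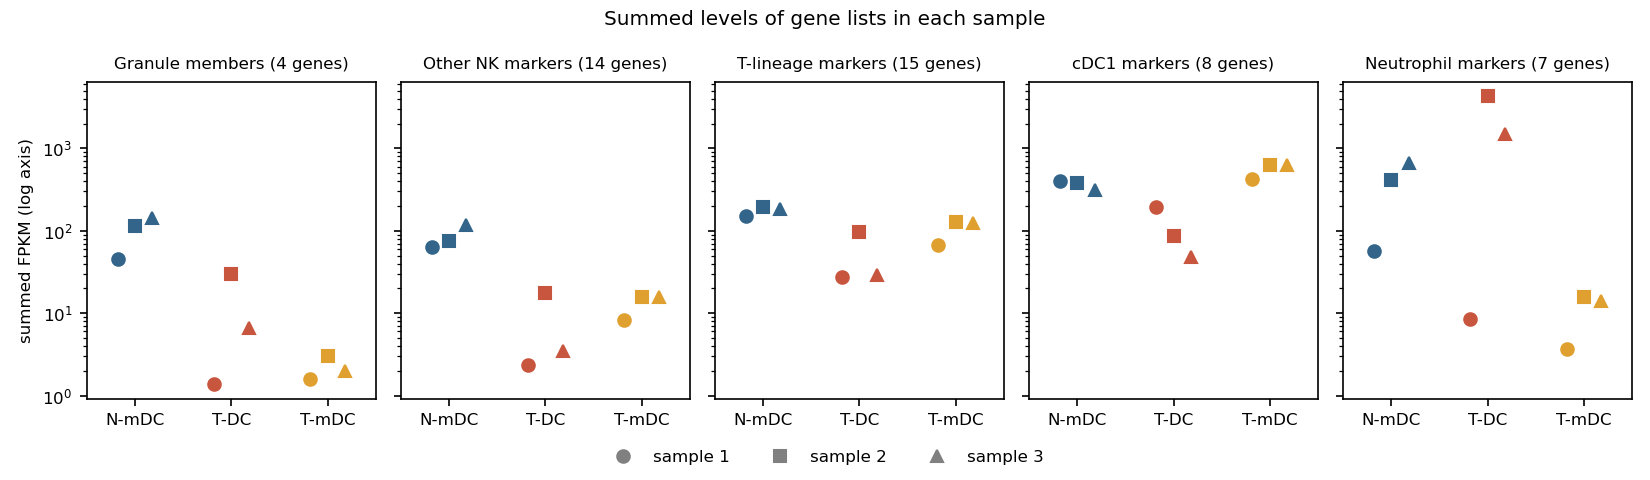
Summed FPKM (log axis) of the 4 granule members and of 4 marker lists in each of the 9 samples, with the symbol shape giving the sample number. T-DC sample 2 is the highest T-DC sample for granule members, T-lineage and neutrophil markers and for NK markers without S1pr5, and T-DC sample 1 for cDC1 markers. With S1pr5, T-DC sample 1 would be the highest for NK markers.

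Several other receptors of NK cells divided as the members did, and others did not. Of 25 listed, 20 were tested, and 15 fell in T-DCs and 7 in T-mDCs, beside 10.3% and 1.52% of all tested genes. In T-DCs against T-mDCs, 6 were lower and 1 higher, beside 8.79% and 5.44%. The median difference of the 20 was -1.67 in T-DCs and -1.35 in T-mDCs, beside 0.05 and 0.03 for all tested genes. Klra5 and Slamf6 were higher in every T-mDC sample than in any N-mDC sample, but were not called there (limma, adjusted p = 0.0799 and 0.276). Cd244a passed in neither leukemic group (limma, adjusted p = 0.587 in T-DCs and 0.983 in T-mDCs). Klra8, the activating Ly49H, was at 4.18, 12.7 and 12.3 FPKM in N-mDCs, at 0.0948, 1.59 and 0.0559 FPKM in T-DCs and at 0, 0.132 and 0.138 FPKM in T-mDCs, and fell in both leukemic groups (limma, adjusted p = 0.00581 and 0.0155).

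Klri1 and Slamf7 followed the pattern of Klrk1. Klri1, a lectin-like receptor, was at 150, 46.3 and 89.5 FPKM in N-mDCs, at 4.86, 3.16 and 1.57 FPKM in T-DCs and at 44.5, 86.3 and 83.7 FPKM in T-mDCs. It fell by 4.45 ± 0.47 in T-DCs (limma, adjusted p = 0.00128) and differed by -0.32 ± 0.47 in T-mDCs (limma, adjusted p = 0.782). Slamf7, a self-ligand receptor of several leukocyte types, had means of 46.7 ± 13.1, 58.5 ± 15.8 and 5.26 ± 2.36 FPKM in N-mDCs, T-mDCs and T-DCs, and fell by 2.98 ± 0.36 in T-DCs (limma, adjusted p = 0.00187). Klri2 had means of 17.5 ± 8.54, 6.06 ± 2.91 and 0.479 ± 0.423 FPKM in the same order and, like Klrd1, was intermediate in T-mDCs, where its difference of -1.39 ± 0.44 did not pass (limma, adjusted p = 0.164).

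Klra2, an inhibitory Ly49-family receptor also known from myeloid cells, was the receptor that was higher in T-DCs than in T-mDCs. It was at 52.0, 60.1 and 23.1 FPKM in T-DCs and at 15.2, 5.40 and 6.13 FPKM in T-mDCs, which did not overlap (2.24 ± 0.52; limma, adjusted p = 0.0245). Against N-mDCs, at 8.69, 15.9 and 26.8 FPKM, T-DCs did not differ beyond the spread (limma, adjusted p = 0.101).

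Among other granule genes, 14 of 17 were tested, and 5 fell in T-DCs and 2 in T-mDCs, beside 10.3% and 1.52% of all tested genes. The median difference was -0.75 and -0.20. The granule protease gene Ctsw and the death ligand gene Fasl were the ones called in both. Ctsw was at 7.27, 18.8 and 20.7 FPKM in N-mDCs, at 0.634, 2.62 and 0.428 FPKM in T-DCs and at 0.817, 1.76 and 1.24 FPKM in T-mDCs (limma, adjusted p = 0.00490 in T-DCs and 0.0224 in T-mDCs). Fasl had a mean of 3.196 ± 2.15 FPKM across N-mDCs and of 0.188 ± 0.242 and 0.0735 ± 0.0704 FPKM in T-DCs and T-mDCs. Fasl and Tnfsf10 reached 1 FPKM in no leukemic sample, so they passed the filter through N-mDCs alone. Their N-mDC values thus had to lie above all leukemic values, as had those of Klra7, Klre1 and Klrg1 of the receptor list. Tnfsf10 was still not called (limma, adjusted p = 0.201 in T-DCs and 0.0805 in T-mDCs). Serpinb9 encodes an inhibitor of granzyme B that also protects antigen-presenting cells. Its means were 38.5 ± 18.5, 34.2 ± 5.35 and 3.97 ± 1.503 FPKM in N-mDCs, T-mDCs and T-DCs, so it fell in T-DCs (limma, adjusted p = 0.00225) with values in T-mDCs like those of N-mDCs (difference -0.06 ± 0.38). Serpinb6b, of the same family, fell by 2.15 ± 0.38 in T-DCs (limma, adjusted p = 0.00777) and had means of 59.1 ± 7.35 FPKM in T-mDCs and 46.2 ± 26.9 FPKM in N-mDCs.

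Of 14 cytokine and chemokine genes of NK cells, 10 were tested. By limma 5 fell in T-DCs and 0 in T-mDCs (3 at an unadjusted p under 0.05), beside 10.3% and 1.52% of all tested genes. The median difference of the 10 was -1.05 in T-DCs and -0.09 in T-mDCs. The chemokine gene Ccl5 was at 471, 217 and 268 FPKM in N-mDCs, at 5.76, 16.0 and 4.87 FPKM in T-DCs and at 391, 629 and 571 FPKM in T-mDCs. It fell by 5.11 ± 0.45 in T-DCs (limma, adjusted p = 0.000629). Xcl1, whose product attracts cDC1, was at 6.97, 30.3 and 29.8 FPKM across N-mDCs and at 0.213, 5.67 and 0.378 FPKM across T-DCs and fell (limma, adjusted p = 0.0311), with T-DC sample 2 again the highest T-DC sample. Il2rb, a receptor chain for IL-2 and IL-15, fell by 2.92 ± 0.66 in T-DCs (limma, adjusted p = 0.0202) and differed by -3.01 ± 0.66 in T-mDCs, just outside the threshold (limma, adjusted p = 0.0576). Ccl4 had means of 232 ± 69.1, 272 ± 12.7 and 65.0 ± 44.2 FPKM in N-mDCs, T-mDCs and T-DCs and fell in T-DCs (limma, adjusted p = 0.0273).

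S1pr5, a lipid receptor by which NK cells leave lymphoid tissue and which monocytes also make, ran opposite to the members. It was at 136, 51.8 and 47.4 FPKM in T-DCs, at 3.43, 6.66 and 6.10 FPKM in N-mDCs and at 27.0, 0.331 and 0.565 FPKM in T-mDCs. It was higher in T-DCs than in T-mDCs by 4.18 ± 1.05 (limma, adjusted p = 0.0322), and missed the threshold against N-mDCs (limma, adjusted p = 0.0531). S1pr5, Klra2, Klra5, Slamf6, Cd244a and Tnfsf10 fall outside the rule for named genes and were chosen after their values were seen.

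Of 11 further transcription factors, 9 were tested. By limma 3 fell in T-DCs and 0 in T-mDCs (2 at an unadjusted p under 0.05), beside 10.3% and 1.52% of all tested genes. The median difference of the 9 was -1.003 in T-DCs and -0.28 in T-mDCs. Runx3, a factor of cytotoxic lymphocytes and DCs that reads the Runx core marked in the sequences above, was at 30.9, 20.1 and 29.6 FPKM in N-mDCs, at 5.36, 4.97 and 4.33 FPKM in T-DCs and at 15.9, 24.8 and 25.1 FPKM in T-mDCs. It fell by 2.22 ± 0.24 in T-DCs (limma, adjusted p = 0.00128) and differed by -0.28 ± 0.24 in T-mDCs (limma, adjusted p = 0.589). Stat4, which relays IL-12 signals, had means of 3.82 ± 0.454, 1.97 ± 0.689 and 0.482 ± 0.357 FPKM in N-mDCs, T-mDCs and T-DCs, and fell in T-DCs (limma, adjusted p = 0.00339). Nfil3, needed for the development of NK cells and cDC1, fell by 1.00 ± 0.29 in T-DCs, at the threshold (limma, adjusted p = 0.04997).

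Of 13 adaptor and signalling genes, 9 were tested, where 10.3% of all tested genes fell in T-DCs and 1.52% in T-mDCs. Only Sh2d2a, a T cell and NK cell adaptor gene, was called, lower in both leukemic groups. It was at 3.03, 4.96 and 7.02 FPKM in N-mDCs, at 0.0282, 1.86 and 0.266 FPKM in T-DCs and at 0.392, 0.296 and 0.375 FPKM in T-mDCs. The adjusted p (limma) was 0.0142 in T-DCs and 0.0344 in T-mDCs, and the median difference of the 9 genes was -0.09 and -0.59.

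Among all tested genes outside the 10, 9 of the 10 most alike to the mean z-score of the members over the 9 samples were Ctsw (Pearson's r = 0.990), Tnfsf14 (0.987), Klre1 (0.983), H2-Q10 (0.978), Mmp13 (0.977), Il1r2 (0.976), Klrc1 (0.976), Cdkn1a (0.975) and Klra4 (0.974). Ctsw, Klre1, Klrc1 and Klra4 belong to the lists above, and the others do not. Il1r2, the decoy receptor for IL-1, was the most abundant of them, at 116, 145 and 189 FPKM in N-mDCs, at 3.48, 8.25 and 2.38 FPKM in T-DCs and at 8.44, 16.2 and 15.5 FPKM in T-mDCs. Tnfsf14, which encodes the cytokine LIGHT, had means of 5.06, 1.28 and 0.714 FPKM in N-mDCs, T-mDCs and T-DCs. Likeness over 9 samples in 3 groups mainly reflects the group means and is given as a description.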

How the data were processed

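Gene expression was analysed from the table of FPKM (fragments per kilobase of gene length, relative to the scaled size of the library) that the authors deposited for 3 N-mDC, 3 T-DC and 3 T-mDC samples. RNA of sorted cells had been extracted with a column kit and sequenced on Illumina libraries. The submitters' processing notes name mm10, while the aligner, counter, annotation and strand setting are not given in the sources used here. FPKM times gene length gave whole reads (within 0.01) for 100% of values, with scaling sizes that differed by up to 1.27-fold, and 1 read on 1 kb was worth 0.0517 to 0.0659 FPKM. Starts and ends of all 10 members equalled those of GENCODE M21.

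Values were taken as log2(FPKM + 1) for genes of at least 1 FPKM in at least 3 samples, and all groups were fitted together with limma 3.58.1 (trended eBayes) in R 4.3.3, with Benjamini-Hochberg adjustment and a threshold of 0.05. The fit was tested on simulated data. Alternatives were a pseudocount of 0.1, no filter, 2 other scalings, a fit to the groups compared, no variance trend, a replicate block, an average of T-mDC samples 2 and 3, T-DC samples 2 and 3 left out, voom on recovered reads, and each sample left out. Of the scalings, median of ratios gave every sample the same factor of 1.004, so it could hardly change a call. Scaling to the reads on genes was added after seeing the data. The members, the gene lists and the tests were chosen with earlier results of these data known. Named genes are the 10 members, up to 4 called genes per pathway list with the largest difference from N-mDCs, and the 10 genes most correlated with the members (1 of which is not reported here), beside those said to be chosen otherwise. Motifs were searched on both strands of RefSeq windows with Python 3.11.15. The study's single-cell and flow cytometry data were not used here.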

Additional observations from a re-analysis of the deposited data

How the results depend on the processing

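Over the 19 alternatives, 475 of the members' results kept their direction and side of the threshold, 63 lost the call, 15 gained it and 17 changed sign. Median-of-ratios scaling, which gave every sample the same factor, is among the 19 and could hardly move a result. The counts of genes below are those called lower or higher. With a pseudocount of 0.1, T-mDCs against N-mDCs had 77 lower and 30 higher, 2 members lower, 2 members lower in both leukemic groups and 67 genes lower in both. Without a filter, 402 were higher in T-DCs against N-mDCs and 311 against T-mDCs, with 3 members lower in T-mDCs and 3 in both. Fits to the groups compared gave 809 lower and 261 higher in T-DCs against N-mDCs, 488 and 362 in T-mDCs against N-mDCs, and 252 higher in T-DCs against T-mDCs. With T-mDC samples 2 and 3 averaged, 404 were higher in T-DCs against N-mDCs, 15 lower and 8 higher in T-mDCs against N-mDCs, 455 lower and 85 higher in T-DCs against T-mDCs, and 15 lower in both, with 0 members in T-mDCs (8 at an unadjusted p under 0.05) and 0 in both. Leaving out T-DC samples 2 and 3 together, with the lone sample assumed to vary like the other groups, gave 452 lower and 294 higher in T-DCs against N-mDCs, 487 and 362 in T-mDCs against N-mDCs, and 448 and 293 in T-DCs against T-mDCs. Voom gave 105 lower in T-mDCs, 3 members lower there, 3 members in both and 101 genes in both. The cause of these shifts was not tested.

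The replicate block gave 435 higher in T-DCs against N-mDCs, 60 lower and 18 higher in T-mDCs against N-mDCs, 450 higher in T-DCs against T-mDCs, 3 members lower in T-mDCs, 3 in both and 55 genes in both. The numbers do not pair the samples: deviations of same-numbered samples had correlations from -0.47 to 0.27.

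Leaving out 1 sample at a time gave 748 to 2419 lower and 219 to 2611 higher in T-DCs against N-mDCs, 16 to 581 lower and 7 to 441 higher in T-mDCs against N-mDCs, 455 to 2137 lower and 82 to 2338 higher in T-DCs against T-mDCs, and 16 to 419 lower in both. Of the members, against N-mDCs, 7 to 10 were lower for T-DCs and 0 to 8 for T-mDCs, 3 to 3 were lower and 0 to 1 higher in T-DCs against T-mDCs, and 0 to 7 were lower in both.

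The sign changes concerned differences that passed neither with all samples nor in the fits where the sign changed. In T-DCs against T-mDCs with T-DC samples 2 and 3 left out, the differences were -0.235 (Gzma), -0.358 (Gzmb), -0.109 (Prf1), -0.0647 (Nkg7), -0.0867 (Klrb1c) and -0.180 (Eomes). Eomes was at -0.0317 with voom and Ncr1 at 0.0645 with T-mDC samples 2 and 3 averaged. Over fits with 1 sample left out, that comparison gave -0.0363 to 1.37 for Gzma, -0.110 to 0.647 for Prf1, -0.0387 to 0.186 for Klrb1c, -0.272 to 0.139 for Ncr1 and -0.103 to 0.335 for Eomes. In T-mDCs against N-mDCs it was -0.309 to 0.193 for Klrk1 and -0.417 to 0.0200 for Tbx21. With 1 to 20 reads per leukemic sample, Klrb1c and Ncr1 were near the limit of detection there.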

Other observations

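The genes that NK receptors recognise were also measured. Of 15 listed ligand genes, 11 were tested, 2 fell in T-DCs against N-mDCs, 2 rose in T-mDCs against N-mDCs and 3 were lower in T-DCs than in T-mDCs, beside 10.3%, 0.690% and 8.79% of all tested genes. Their median difference from N-mDCs was -0.32 in T-DCs and -0.39 in T-mDCs. Ulbp1, which encodes a ligand of NKG2D, was at 2.61, 1.73 and 2.64 FPKM in N-mDCs, at 2.47, 3.30 and 1.83 FPKM in T-DCs and at 4.89, 6.05 and 7.08 FPKM in T-mDCs. It was thus higher in all T-mDCs than in any other sample, by 1.08 ± 0.22 on the log2 scale against N-mDCs (limma, adjusted p = 0.0468). Fas, the receptor that Fasl engages, rose in T-mDCs, to 22.6 ± 5.51 FPKM against 6.35 ± 1.00 FPKM for N-mDCs (SD, n = 3 each; limma, adjusted p = 0.0261), and was at 5.06 ± 1.87 FPKM in T-DCs.

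H2-T23, which encodes the Qa-1 chain bound by receptors containing CD94, was at 245, 245 and 219 FPKM in N-mDCs, at 113, 136 and 105 FPKM in T-DCs and at 132, 157 and 151 FPKM in T-mDCs. It fell in T-DCs (limma, adjusted p = 0.00777) and did not pass in T-mDCs (limma, adjusted p = 0.0940), where its samples lay below those of N-mDCs. Pvr, a ligand of the NK receptors CD226 and TIGIT, fell by 1.81 ± 0.33 in T-DCs (limma, adjusted p = 0.00895) and had means of 8.50 ± 2.46, 4.97 ± 0.299 and 1.81 ± 1.17 FPKM in N-mDCs, T-mDCs and T-DCs.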
